A study of Mus musculus with 12 samples.

Results

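The genes described here are nuclear genes of respiratory complex II, complex III with cytochrome c, and the ATP synthase, measured as RNA in whole mouse liver. They were taken from the deposited table by symbol (Sdha to Sdhd, every Uqcr symbol, Cyc1, Cycs and every Atp5 symbol, without pseudogenes), which gave 31 of 24532 genes: 4 of complex II, 10 of complex III and cytochrome c, and 17 with an Atp5 symbol. The 12 libraries came from livers of mice aged 20 wk, all of the mixed strain C57BL/6x129S6/SvEv, with 4 libraries per group. KO-Drug mice were Atp7b-/- and received in their food an agonist of LXR (liver X receptor), a sterol-sensing nuclear receptor. KO mice were Atp7b-/- without the agonist, and Het mice were the heterozygous controls without it. Atp7b encodes the copper pump whose loss causes Wilson disease. The labels give neither the knockout allele nor the sex, the litter, or the name, dose and duration of the agonist.

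Complex II (succinate dehydrogenase) belongs both to the citric acid cycle and to the respiratory chain, and passes electrons from succinate to ubiquinone. Complex III takes them from ubiquinol to cytochrome c while it pumps protons across the inner mitochondrial membrane, and the ATP synthase lets the protons back through a rotating ring to make ATP. Hepatocytes are rich in mitochondria and spend this ATP on urea, glucose and bile formation. The mitochondrially encoded subunits of complex III and the ATP synthase were not analysed here. Of the Atp5 symbols, Atp5s and Atp5sl are not subunits of the enzyme. RefSeq names them Dmac2l and Dmac2, in the naming of a complex I assembly factor described in human cells, and they are kept apart below.

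Nuclear genes of the respiratory chain are known targets of the transcription factors NRF1, GABPA, YY1, SP1 and the estrogen-related receptors (ERR). RefSeq (GRCm38.p6) promoter windows were found for 25 of the 31 members, and the 250 bases before each annotated start were searched on both strands. The NRF1 motif GCGCATGC stood in 5 of the 25 windows (20%), those of Atp5g2, Atp5k, Atp5l, Cycs and Sdhb, and in 2.56% of 27025 gene windows. The other motifs were CCGGAAGT for GABPA (3 of 25 windows against 3.23% of all genes), AAGATGGC for YY1 (2 of 25 against 1.83%), TCAAGGTCA for ERR (1 of 25 against 0.422%) and GGGGCGGGG for SP1 (5 of 25 against 11.8%). A match describes the letters and is not evidence of binding. Windows are printed 5′ to 3′ on the gene's strand, with a motif on either strand in capitals, for the 3 genes of ATP synthase subunit c, whose shares of the subunit c RNA are compared below, for Sdhb, the member with the smallest adjusted p between KO-Drug and KO, and for Cycs. They lie at chr11:96075632-96075881 (minus strand, Atp5g1, no motif), chr15:102671048-102671297 (minus, Atp5g2), chr2:73911327-73911576 (minus, Atp5g3), chr4:140961021-140961270 (plus, Sdhb) and chr6:50566570-50566819 (minus, Cycs).
Atp5g1: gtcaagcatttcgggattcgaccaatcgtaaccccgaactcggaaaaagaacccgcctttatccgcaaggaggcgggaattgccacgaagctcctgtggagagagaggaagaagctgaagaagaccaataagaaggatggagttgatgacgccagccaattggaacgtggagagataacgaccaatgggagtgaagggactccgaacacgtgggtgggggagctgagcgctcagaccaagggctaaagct
Atp5g2: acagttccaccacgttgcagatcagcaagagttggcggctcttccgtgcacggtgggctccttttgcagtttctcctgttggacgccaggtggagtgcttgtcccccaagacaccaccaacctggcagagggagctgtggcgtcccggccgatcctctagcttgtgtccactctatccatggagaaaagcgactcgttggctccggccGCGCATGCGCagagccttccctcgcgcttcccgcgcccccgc
Atp5g3: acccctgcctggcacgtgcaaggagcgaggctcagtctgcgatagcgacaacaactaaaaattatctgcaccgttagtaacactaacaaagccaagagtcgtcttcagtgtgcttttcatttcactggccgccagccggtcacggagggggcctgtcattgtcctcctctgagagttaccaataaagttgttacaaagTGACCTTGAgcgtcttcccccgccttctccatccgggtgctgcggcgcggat
Sdhb: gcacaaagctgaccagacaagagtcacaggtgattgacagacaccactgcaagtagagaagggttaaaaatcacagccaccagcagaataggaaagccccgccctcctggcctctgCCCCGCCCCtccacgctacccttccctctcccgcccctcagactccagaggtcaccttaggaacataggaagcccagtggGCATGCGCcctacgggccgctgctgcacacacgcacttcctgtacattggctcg
Cycs: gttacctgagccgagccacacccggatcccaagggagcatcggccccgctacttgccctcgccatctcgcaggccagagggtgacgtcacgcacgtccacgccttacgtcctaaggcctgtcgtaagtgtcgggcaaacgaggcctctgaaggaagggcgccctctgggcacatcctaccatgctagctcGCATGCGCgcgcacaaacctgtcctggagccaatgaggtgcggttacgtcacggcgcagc
The capitals mark, in Atp5g2, overlapping NRF1 matches on both strands that begin 42 and 40 bases before the start; in Atp5g3, an ERR match at 52 bases; in Sdhb, an SP1 match at 134 and an NRF1 match at 54 bases; and in Cycs, an NRF1 match at 60 bases. Of the 3 subunit c genes, Atp5g2 had an NRF1 match, Atp5g3 an ERR match and Atp5g1 none of the 5. For Atp5g1 and Atp5g3 the RefSeq gene span reaches further upstream than the start used here.

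Library totals ran from 16535938 to 28329751 counts. Atp7b averaged 2.22 ± 1.11 CPM (counts scaled by library size, with TMM factors) in KO-Drug, 2.09 ± 0.475 CPM in KO and 12.8 ± 2.62 CPM in Het (SD, n = 4 each), so the targeted gene was low in all 8 knockout libraries. Hepatocyte markers were the most abundant marker set in every library, and the 6 markers of muscle and brown fat summed to at most 0.653 CPM. Het 1 stood apart: genes with transcripts under 1000 bases lay a median log2 0.33 above their Het mean there, and genes over 3000 bases lay 0.06 below it. Its erythroid markers summed to 1960.0 CPM, against 202 to 356 CPM in the other Het libraries. The sex-linked transcripts of 2 KO libraries differed from the other 10 libraries. In KO 5, Xist of the inactive X chromosome was at 81.8 CPM and the Y-linked Ddx3y at 0.379 CPM, and KO 6 held both, at 17.8 and 64.4 CPM. Counts of members called between KO and Het are given with and without these libraries, as are some other member results. Counts for the further gene lists and the markers are given with all 12 libraries only.

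**Figure D1:**
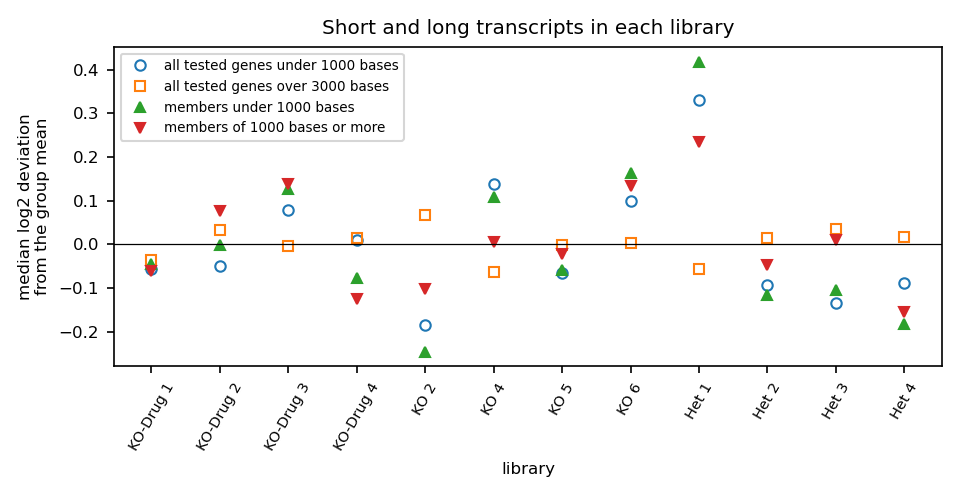
Median deviation of each library from its group mean (log2) for tested genes averaging 20 CPM or more with a median transcript length under 1000 bases (378 genes, open circles) or over 3000 bases (2759 genes, open squares), and for the 14 members under 1000 bases (upward triangles) and the other 17 (downward triangles). Het 1 is the highest library on short transcripts, at 0.33 for all genes and 0.42 for the short members, and KO 2 is the lowest, at -0.19 and -0.25.

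On TMM scaling, the KO livers held less RNA of nearly every member than the Het livers. All 31 passed the filter on low counts, and 30 of 31 were called lower in KO by edgeR (adjusted p under 0.05), with Atp5s the only one called higher. Over the 13379 tested genes, 17.7% were called lower and 23.0% higher. The median log2 change of the members was -0.74, against 0.02 for all tested genes, and members ran from -1.46 (Atp5g1) to 0.61 (Atp5s). For 29 members all 4 KO libraries lay below all 4 Het libraries, for Atp5s all 4 lay above, and for Atp5g2 the groups overlapped. Such separation downward was seen in 17.1% of tested genes, and upward in 22.2%. Without KO 5 and KO 6 28 members were called lower, and without Het 1 29 were, with a median of -0.63.

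On the same scaling, agonist feeding went with higher levels of most members. Between KO-Drug and KO, 20 of 31 members were called higher in KO-Drug by edgeR, against 8.80% of tested genes, and the median log2 change was 0.52, against -0.02 for all genes. No member was called lower, which was also the count at an unadjusted p under 0.05 and with DESeq2 and limma, against 11.0% of genes. In 25 members all 4 KO-Drug libraries lay above all 4 KO libraries, as in 11.4% of tested genes. The count depended on single libraries: it was 8 without KO 2, 8 without KO-Drug 3, 13 without KO 4 and 13 without KO-Drug 2. Without both KO 5 and KO 6 it was 16. The same 4 KO libraries stand on both sides of these comparisons, below Het in the first and as the base of the second, so their values are given side by side and not as independent results.

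Set against Het, the KO-Drug livers differed in 3 members. Atp5g1 and Atp5sl were called lower and Atp5s higher, where 8.45% of all tested genes were called lower and 13.0% higher. The other 28 were not called, and the median log2 change was -0.19 (0.00 for all genes), or -0.07 without Het 1. Group means of KO-Drug lay between those of KO and Het for 30 of the 31 members on TMM scaling and for 17 on total counts, where KO-Drug lay above Het in 13. In 24 members the KO-Drug and Het libraries overlapped, in 6 all KO-Drug libraries were lower (11.0% of all genes) and in Atp5s all were higher (13.6%). Without Het 4 the count of lower members was 4 in place of 2.

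**Figure D2:**
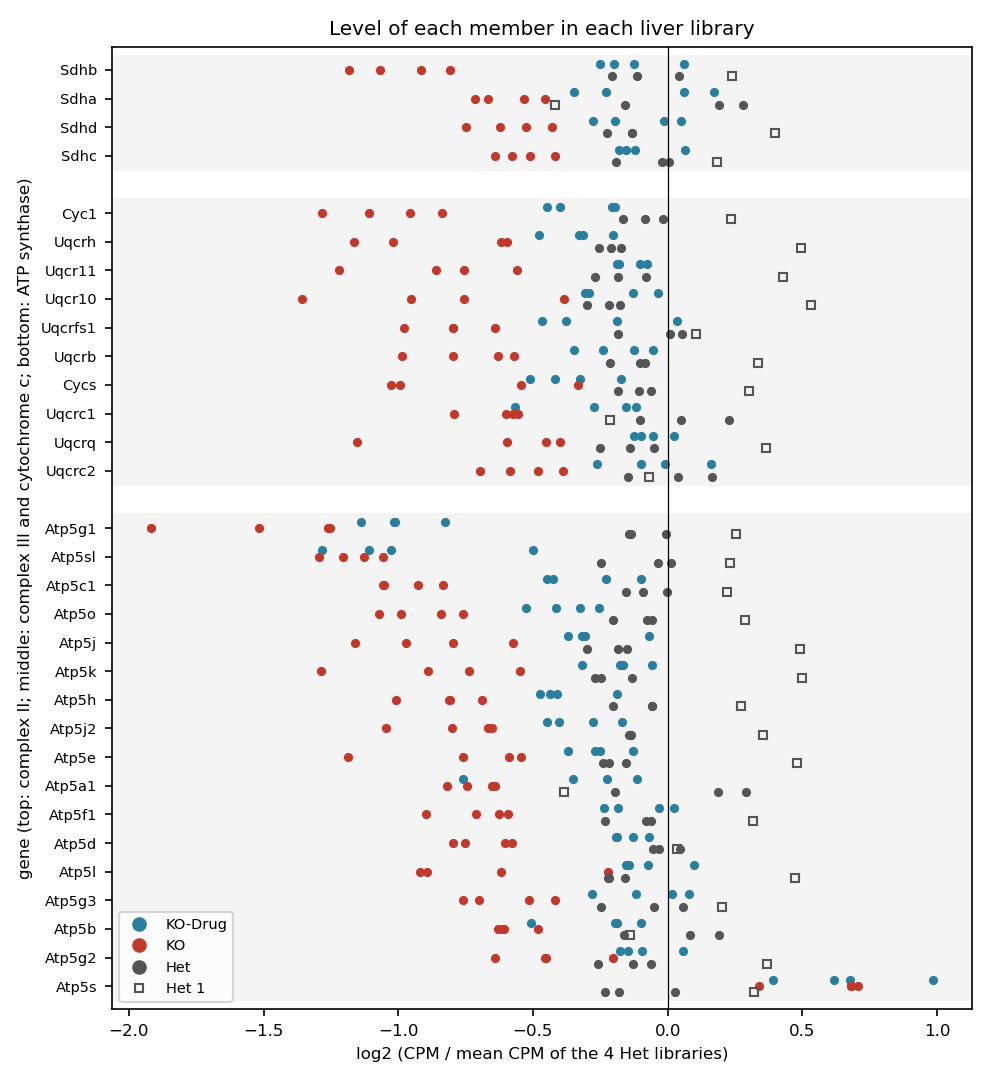
Level of every member in every library, as log2 of its CPM over the mean CPM of the 4 Het libraries (TMM scaling). Each row is a gene, with KO-Drug points above, KO in the middle and Het below, and an open square for Het 1. KO points lie left of the Het points in 29 rows. The KO-Drug mean lies between those of KO and Het for 30 members, but KO-Drug and Het points overlap in 24 rows. Atp5s, at the bottom, is the row where both knockout groups lie to the right.

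How far these counts reach depends on the scaling of the libraries. TMM scaling centres the bulk of genes, while scaling to total counts puts the median change of all tested genes at 0.54 in KO vs Het, -0.36 in KO-Drug vs KO and 0.18 in KO-Drug vs Het. On total counts the members' median was -0.24 in KO vs Het, so that they lay 0.78 below the median gene, where TMM put them 0.76 below it. The members called lower in KO were then 6 (Sdhb, Cyc1, Atp5g1, Atp5c1, Atp5o and Atp5sl, against 3.44% of genes called lower and 51.6% higher), and Atp5s stayed higher. In KO-Drug vs KO the total-count median was 0.17, which lay 0.53 above the median gene on either scaling, and Sdhb alone was called higher (2.65% of genes higher and 29.2% lower), while 5 members turned below 0: Atp5s (-0.26), Atp5sl (-0.12), Cycs, Atp5b and Atp5g2, the last 3 by less than 0.01. KO-Drug vs Het gave the same 3 members on both scalings (3.73% of genes lower and 18.2% higher on total counts). As a share of all counts in a library, the 31 members held 0.619 to 0.706% in KO-Drug, 0.559 to 0.662% in KO and 0.632 to 0.871% in Het, and these ranges overlapped.

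**Figure D3:**
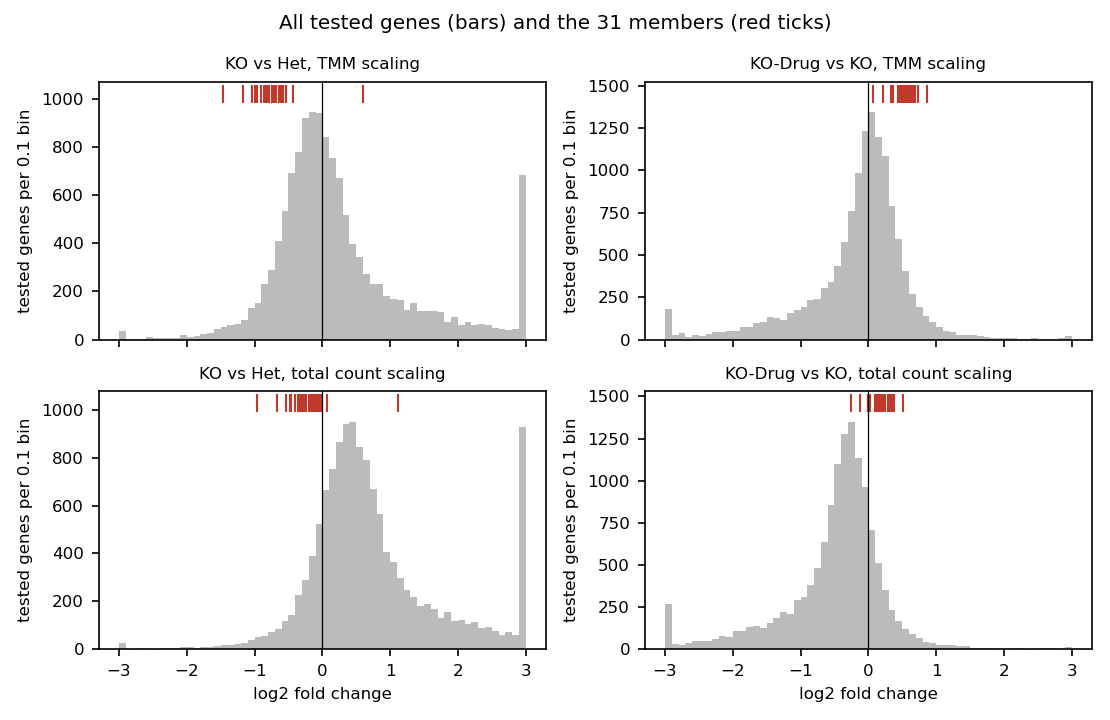
Histograms of the log2 fold change of all 13379 tested genes (bars of 0.1, with values beyond 3 in either direction collected in the outermost bars) and of the 31 members (red ticks), for KO vs Het (left) and KO-Drug vs KO (right), with TMM scaling (top) and total-count scaling (bottom). In both rows the ticks keep their distance from the bulk of genes (0.76 and 0.78 below the median gene on the left, 0.53 above it on the right), while the bulk itself moves off 0 in the bottom row.

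In complex II all 4 subunits were called lower in KO than in Het, with a median of -0.58. In KO-Drug vs KO 3 of the 4 were called higher. Over all tested genes these shares were 17.7% and 8.80%. Sdhb, the iron-sulfur subunit that carries electrons from the flavin to ubiquinone, had 241, 263, 299 and 249.7 CPM in KO-Drug, 137, 152, 126 and 164 CPM in KO, and 339, 265, 296 and 249 CPM in Het. The KO libraries were the low ones, and KO-Drug overlapped Het. The KO level of Sdhb was 1.98-fold below Het (log2 -0.99, SE 0.14, edgeR adjusted p = 0.00015) and 1.82-fold higher in KO-Drug than in KO (log2 0.86, SE 0.14, adjusted p = 0.0018). It was the only member called in both comparisons under every alternative tried.

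Sdhc and Sdhd together anchor complex II in the membrane and hold its heme. For Sdhc the levels were 154, 158, 179 and 151 CPM in KO-Drug, 109.8, 115, 120.1 and 128 CPM in KO, and 195, 169, 172 and 150.2 CPM in Het. KO did not overlap with either of the other groups, and the fold changes were small, at 1.45-fold below Het in KO (log2 -0.54, SE 0.11, adjusted p = 0.0025) and 1.36-fold higher in KO-Drug than in KO (log2 0.44, SE 0.11, adjusted p = 0.017). Sdhd had 232, 291, 278 and 245 CPM in KO-Drug, 167, 195, 182 and 208 CPM in KO, and 370.3, 256, 256 and 240.3 CPM in Het. Its highest value was that of Het 1, and the 3 other Het libraries lay within the KO-Drug range. Sdhd was 1.49-fold lower in KO (log2 -0.58, SE 0.15, adjusted p = 0.0092) and 1.39-fold higher in KO-Drug than in KO (log2 0.47, SE 0.15, adjusted p = 0.045). The KO-Drug vs KO call of Sdhc was lost without KO 2, KO 4 or KO-Drug 3 (adjusted p from 0.0503 to 0.0579), and that of Sdhd in all fits that left out a library other than Het 1, Het 4 or KO-Drug 1 (adjusted p from 0.0515 to 0.116). Sdha, the flavoprotein that oxidizes succinate, was 1.50-fold below Het in KO, and its log2 change in KO-Drug vs KO, 0.52, missed the threshold (adjusted p = 0.051), although all 4 KO-Drug libraries lay above KO. Without Het 3 the KO vs Het call of Sdha was lost too (adjusted p = 0.0521). In KO-Drug vs Het none of the 4 was called by edgeR, DESeq2 or limma, nor at an unadjusted p under 0.05, and the 95% intervals of the 4 log2 differences together ran from -0.44 to 0.30.

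The 10 genes of complex III and cytochrome c were all called lower in KO than in Het, with a median of -0.77 and a range of -1.04 to -0.53. In KO-Drug vs KO 6 of 10 were called higher. The shares of all tested genes called in these directions were 17.7% and 8.80%. Cyc1 encodes cytochrome c1, which hands electrons to cytochrome c. It had 117, 134, 135 and 113 CPM in KO-Drug, 71.6, 79.7, 63.5 and 86.4 CPM in KO, and 182, 146, 153 and 138 CPM in Het. The 3 groups did not overlap, with KO lowest and Het highest. Against Het, KO was 2.05-fold lower in Cyc1 (log2 -1.04, SE 0.13, adjusted p = 7.5e-05), and KO-Drug was 1.66-fold above KO (log2 0.73, SE 0.13, adjusted p = 0.0032).

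Uqcrfs1 encodes the Rieske iron-sulfur protein, whose mobile head passes electrons to cytochrome c1. Its levels were 134, 163, 190.4 and 143 CPM in KO-Drug, 94.4, 107, 107 and 119 CPM in KO, and 199.7, 193, 187 and 164 CPM in Het, with all KO libraries lowest. The fall in KO was 1.74-fold (log2 -0.80, SE 0.13, adjusted p = 0.00051), and KO-Drug was 1.48-fold above KO (log2 0.56, SE 0.13, adjusted p = 0.011). Uqcrb, a small subunit at the ubiquinone-binding side, had 146, 158, 167 and 136 CPM in KO-Drug, 87.1, 112, 99.6 and 116 CPM in KO, and 218, 163, 161 and 149 CPM in Het. It was 1.67-fold lower in KO (log2 -0.74, SE 0.14, adjusted p = 0.00145) and 1.46-fold higher in KO-Drug than in KO (log2 0.55, SE 0.14, adjusted p = 0.018; adjusted p = 0.056 without KO 2 and 0.055 without KO-Drug 3).

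By role, the redox subunits Cyc1 and Uqcrfs1 had a median change of -0.92 in KO vs Het, the 5 small subunits -0.82 and the core proteins Uqcrc1 and Uqcrc2, which face the matrix, -0.58. In KO-Drug vs KO the medians were 0.65, 0.56 and 0.42. Uqcr11, Uqcrq and Uqcrc2 were also called higher in KO-Drug than in KO, although Uqcrq lost its call without KO 2, KO 4, KO-Drug 2, KO-Drug 3 or KO-Drug 4 (adjusted p from 0.0591 to 0.0855) and Uqcrc2 without KO 2, KO 4 or KO-Drug 3 (adjusted p from 0.0577 to 0.0658). Uqcr10, Uqcrh, Uqcrc1 and Cycs were not called (adjusted p from 0.053 to 0.17). Cycs, the mobile carrier between complexes III and IV that also triggers apoptosis once it leaves the mitochondrion, fell 1.62-fold in KO against Het (log2 -0.69, SE 0.17, adjusted p = 0.0059), and between KO-Drug and KO its libraries overlapped. In KO-Drug vs Het no member of complex III was called by edgeR, DESeq2 or limma. At an unadjusted p under 0.05 edgeR found 1, Cyc1, which was named after its value was seen.

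Within the ATP synthase, the 15 subunits with an Atp5 symbol were all called lower in KO than in Het, with a median of -0.75. In KO-Drug vs KO 11 of them were called higher, and the median of the 15 was 0.52. Among all tested genes, 17.7% were called lower in KO vs Het and 8.80% higher in KO-Drug vs KO. The catalytic head and its central stalk are made by Atp5a1, Atp5b, Atp5c1, Atp5d and Atp5e. Atp5b, the catalytic beta subunit and the most abundant member, had 1247, 1242, 1325 and 1000.3 CPM in KO-Drug, 918, 929, 934 and 1017 CPM in KO, and 1289, 1505, 1621 and 1269 CPM in Het. All KO libraries lay below all Het libraries, and KO 6 overlapped KO-Drug. The 1.50-fold fall in KO was called (log2 -0.58, SE 0.14, adjusted p = 0.0058), and the KO-Drug vs KO difference of 0.34 was not (SE 0.14, adjusted p = 0.11).

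Atp5c1 encodes the gamma subunit, the shaft that turns inside the head. Its levels were 272, 317, 346 and 277 CPM in KO-Drug, 179, 196, 179 and 209 CPM in KO, and 433, 349, 370.4 and 334 CPM in Het. KO was lowest without overlap, 1.95-fold below Het (log2 -0.96, SE 0.13, adjusted p = 0.000125), and KO-Drug stood 1.59-fold above KO (log2 0.67, SE 0.13, adjusted p = 0.00455). Atp5d, the delta subunit of the central stalk, had the smallest SE of all members in the fit, and 151, 138, 145 and 139 CPM in KO-Drug, 90.8, 104, 93.8 and 106 CPM in KO, and 162, 152, 155 and 163 CPM in Het. No library of any group overlapped with another group, and the KO level was 1.60-fold below Het (log2 -0.68, SE 0.10, adjusted p = 0.0002), with KO-Drug 1.45-fold above KO (log2 0.54, SE 0.10, adjusted p = 0.0035).

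The peripheral stalk, which keeps the head from turning with the ring, is made by Atp5o, Atp5f1, Atp5h and Atp5j. These 4 were called lower in KO than in Het, with a median of -0.84, and higher in KO-Drug than in KO, with a median of 0.57. The second call was lost for Atp5j without KO 2, KO 5, KO 6, KO-Drug 2, KO-Drug 3 or KO-Drug 4 (adjusted p from 0.0515 to 0.0905) and for Atp5h without KO 2, KO 4, KO 5 or KO-Drug 3 (adjusted p from 0.0508 to 0.0877). Atp5j, which spans 84827871 to 84835857 on chromosome 16 (GRCm38.p6), overlaps Gabpa in the RefSeq annotation. Whether the deposited counts used strand is not given in the sources used here, so reads in the shared stretch cannot be told apart. Uqcrq with Gdf9, Uqcrc2 with Pdzd9, Atp5d with Cbarp and Atp5a1 with Haus1 overlap likewise, and 7 further members overlap a Gm gene or, for Atp5b, Snord59a and Mir677. The membrane subunits e, f and g (Atp5k, Atp5j2 and Atp5l) hold the dimers that shape the cristae. Atp5k had 127, 138, 128 and 115 CPM in KO-Drug, 58.7, 98.1, 77.3 and 85.9 CPM in KO, and 203, 131, 121 and 119 CPM in Het, where Het 1 was far above the other 3. It was 1.79-fold lower in KO (log2 -0.84, SE 0.19, adjusted p = 0.0036) and 1.59-fold higher in KO-Drug than in KO (log2 0.66, SE 0.19, adjusted p = 0.027). That second call was lost without KO 2, KO 5, KO-Drug 2 or KO-Drug 3 (adjusted p from 0.0526 to 0.0737). All 3 were called in both comparisons, but in KO-Drug vs KO the call of Atp5l was lost in every fit that left out a library other than Het 1 or KO 4 (adjusted p from 0.055 to 0.126), and that of Atp5j2 without KO 2, KO 4, KO 5, KO-Drug 2, KO-Drug 3 or KO-Drug 4 (adjusted p from 0.0561 to 0.108).

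Subunit c forms the rotating ring, and Atp5g1, Atp5g2 and Atp5g3 are separate genes that make the same mature protein with different import signals. Atp5g1 had 111, 126, 111 and 102 CPM in KO-Drug, 59.2, 78.2, 94.0 and 93.3 CPM in KO, and 267, 203, 223 and 204 CPM in Het. Both knockout groups lay well below Het, and KO-Drug lay above KO. Atp5g1 had the largest change of all members, with KO 2.76-fold below Het (log2 -1.46, SE 0.16, adjusted p = 2.2e-05), and KO-Drug was still 1.99-fold below Het (log2 -0.99, SE 0.16, adjusted p = 0.000605). Its 1.39-fold difference between KO-Drug and KO stood at the threshold (log2 0.47, SE 0.16, adjusted p = 0.0495), and the call was lost in all fits that left out a library other than Het 1, KO 5 or KO 6 (adjusted p from 0.059 to 0.122).

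Atp5g2 levels were 85.7, 83.9, 98.9 and 88.8 CPM in KO-Drug, 60.9, 69.3, 69.5 and 82.5 CPM in KO, and 123, 86.9, 91.1 and 79.3 CPM in Het. It was the member that changed least between KO and Het (1.35-fold lower, log2 -0.43, SE 0.14, adjusted p = 0.029). The groups overlapped, its edgeR adjusted p was 0.076 without Het 1, 0.083 without KO 2, 0.063 without KO 4 and 0.059 without KO 5, and with total-count scaling the change was 0.07. Atp5g3 had 215, 247, 236 and 192 CPM in KO-Drug, 138, 163, 144 and 175 CPM in KO, and 269, 226, 243 and 197 CPM in Het. KO was lowest without overlap, at 1.51-fold below Het (log2 -0.59, SE 0.14, adjusted p = 0.0039) and with KO-Drug 1.44-fold above it (log2 0.52, SE 0.14, adjusted p = 0.017; adjusted p = 0.056 without KO 2 and 0.051 without KO-Drug 3).

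Shares within a library do not depend on its scaling. Of the summed counts of the 3 subunit c genes, Atp5g1 held 24.9 to 27.6% in KO-Drug, 22.9 to 30.6% in KO and 39.3 to 42.5% in Het. The knockout groups overlapped each other, and neither reached the Het range. Atp5g2 held 21.1 ± 2.10% in KO-Drug, 23.0 ± 0.658% in KO and 17.1 ± 1.04% in Het, and Atp5g3 held 52.4 ± 1.60% in KO-Drug, 50.6 ± 3.01% in KO and 42.3 ± 1.62% in Het (SD, n = 4 each). On the deposited FPKM, a value per transcript length, the Atp5g1 share was 23.8% in KO-Drug, 23.6% in KO and 37.2% in Het. The longest stretch that transcripts of the 3 genes share without a mismatch was 21 bases (Atp5g1 with Atp5g2), so a longer read without errors matches 1 of them.

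**Figure D4:**
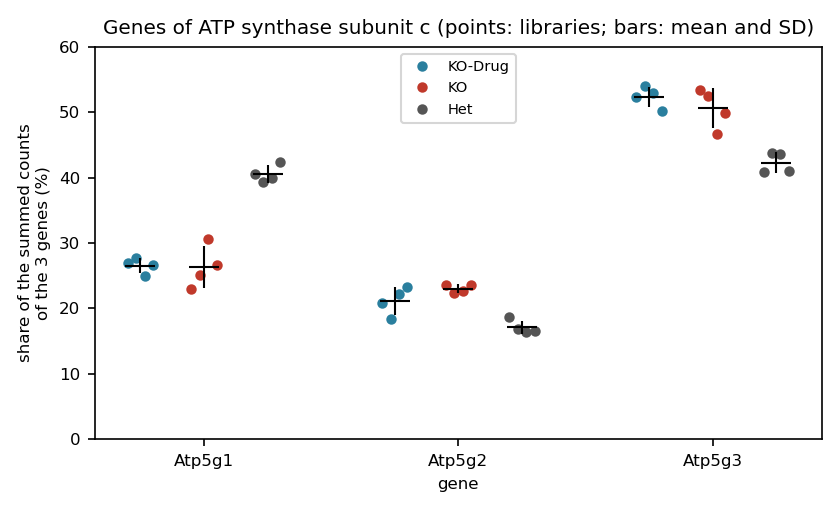
Share of Atp5g1, Atp5g2 and Atp5g3 in the summed counts of these 3 genes, in percent, for each library (points, KO-Drug left, KO in the middle, Het right) with the group mean and SD (bars). Atp5g1 holds 24.9 to 27.6% in KO-Drug and 22.9 to 30.6% in KO, below the 39.3 to 42.5% of Het, and the other 2 genes make up the difference.

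The genes Atp5s and Atp5sl, which carry the Atp5 name without being subunits, went opposite ways. Atp5sl (Dmac2) had 11.8, 20.3, 13.3 and 14.1 CPM in KO-Drug, 13.1, 12.4, 11.7 and 13.8 CPM in KO, and 33.6, 24.1, 28.9 and 28.0 CPM in Het. Both knockout groups lay below Het and overlapped each other. KO was 2.25-fold below Het (log2 -1.17, SE 0.16, adjusted p = 0.00015) and KO-Drug 1.93-fold below Het (log2 -0.95, SE 0.16, adjusted p = 0.0011), while KO-Drug and KO differed by 0.22 (95% interval -0.13 to 0.57). Atp5s (Dmac2l) was the least abundant member, with 4.90, 4.01, 4.69 and 6.05 CPM in KO-Drug, 3.87, 4.99, 4.90 and 4.90 CPM in KO, and 3.82, 3.12, 2.70 and 2.60 CPM in Het. All knockout libraries lay above Het, by 1.52-fold in KO (log2 0.61, SE 0.20, adjusted p = 0.024) and 1.60-fold in KO-Drug (log2 0.68, SE 0.20, adjusted p = 0.025). These calls were lost without single libraries, with an adjusted p of 0.064 without Het 3, 0.068 without Het 4 and 0.051 without KO 4 in KO vs Het, and in KO-Drug vs Het of 0.055 without Het 2, 0.067 without Het 3, 0.074 without Het 4, 0.051 without KO-Drug 1 and 0.081 without KO-Drug 4.

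**Figure D5:**
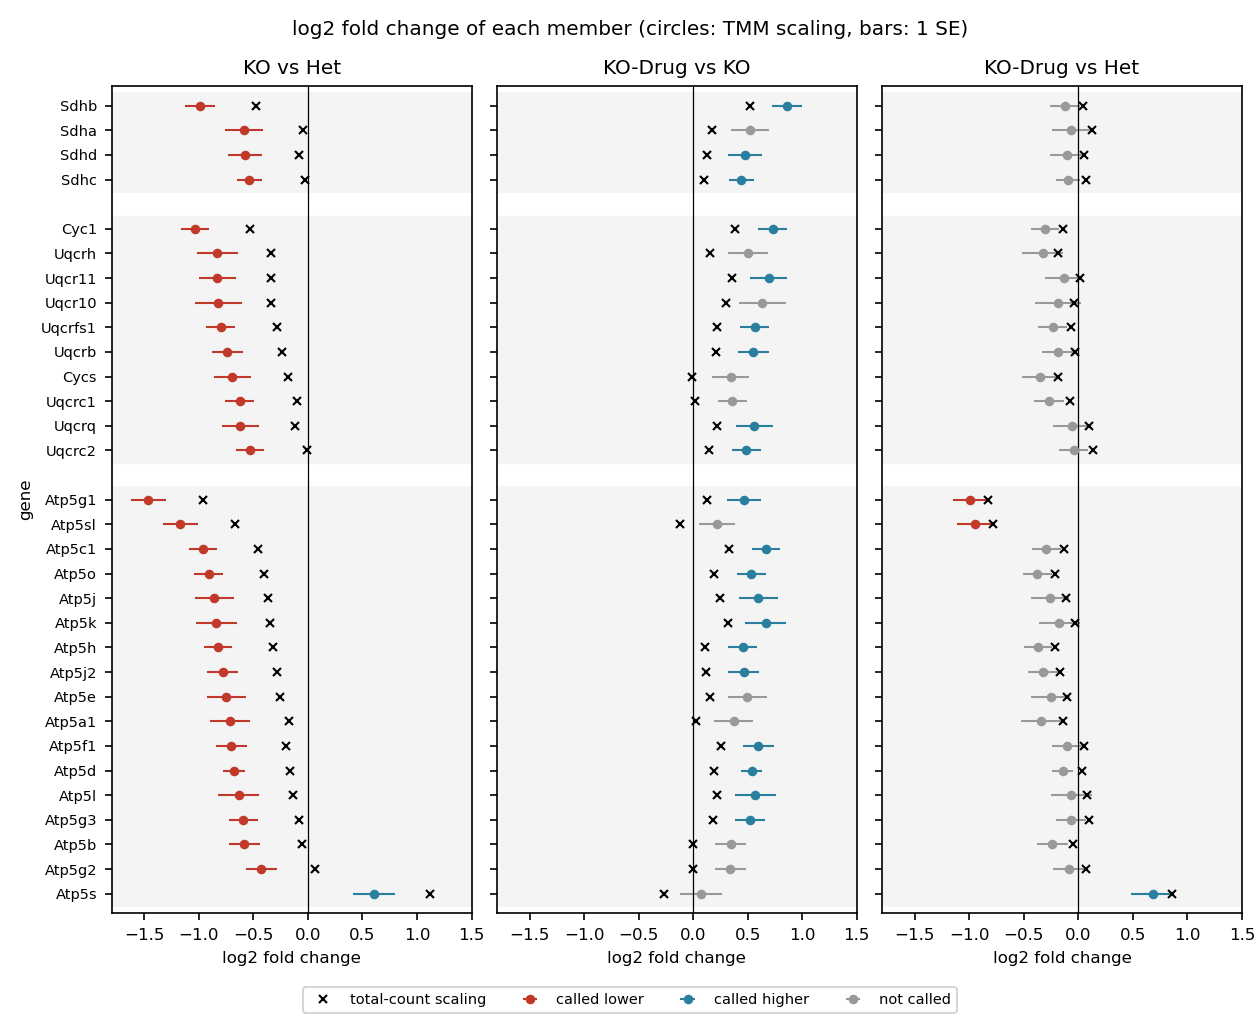
Fold change (log2) of each member in KO vs Het, KO-Drug vs KO and KO-Drug vs Het, with TMM scaling (circles with bars of 1 SE, red for called lower, blue for called higher, grey for not called) and with total-count scaling (crosses). On TMM 30 members are called lower in KO than in Het and 20 higher in KO-Drug than in KO; on total counts 6 and 1 are, and Atp5g2 lies at 0.07 in KO vs Het.

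Levels of different genes were compared on the deposited FPKM. Atp5b was the highest, at 493 ± 47.5 FPKM in KO-Drug, 499 ± 18.3 in KO and 513 ± 35.6 in Het, and Atp5k, at 335 ± 25.5 FPKM in KO-Drug, 272 ± 64.4 in KO and 343 ± 139.7 in Het, came next in KO-Drug and Het (SD, n = 4 each). Without Het 1, Atp5a1 (316 FPKM) stood above Atp5k (273 FPKM) in Het. Cycs had 32.2 ± 2.91 FPKM in KO-Drug, 32.7 ± 8.74 in KO and 37.0 ± 10.3 in Het, below every complex III subunit. Atp5s was the lowest, at 2.55 ± 0.533 FPKM in KO-Drug, 3.10 ± 0.428 in KO and 1.42 ± 0.416 in Het. Atp5g1 ranked 13th of 31 members in Het and 22nd in KO, and its neighbours in that order differed by less than their SD. FPKM is scaled to the total as the total-count fit is, and Het 1 alone summed to 7516 FPKM over the members, against 4647 to 4913 in the other 3 Het libraries.

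The ratio of summed CPM of complex II to that of the Atp5 genes was 0.242 to 0.272 in KO-Drug, 0.232 to 0.255 in KO and 0.229 to 0.232 in Het. The KO and Het ranges met at 0.232. Most subunits of the other respiratory complexes were lower in KO as well on TMM scaling. Complex I was taken by Nduf symbol, so its 37 genes include Ndufa4, a complex IV subunit, and its paralog Ndufa4l2. Of the 37, 27 were called lower in KO than in Het (median -0.59), with Ndufv3 at -0.93 and Ndufb10 at -1.15. In KO-Drug vs KO 19 of 37 were called higher (median 0.45) and 1 lower, Ndufa4l2, at 0.39 CPM in KO-Drug and 1.27 CPM in KO. Ndufa4 is among the 27 and the 19. Over all tested genes, 17.7% were called lower in KO than in Het and 23.0% higher. In KO-Drug vs KO 8.80% of all tested genes were called higher and 11.0% lower. In complex IV, 9 of the 13 that passed the filter were called lower in KO and 1, Cox6b2, higher (median -0.65), with Cox5a at -0.99 and Cox7b at -1.21. In KO-Drug vs KO 8 were called higher (median 0.57). Cox6b2, already higher in KO, is among these 8, at 0.86 in KO-Drug vs KO and 1.96 in KO-Drug vs Het. On total counts complex I had 4 lower and 1 higher in KO vs Het and complex IV 2 lower and 1 higher. Of all tested genes, 3.44% were called lower and 51.6% higher on that scaling. All 19 and 8 higher calls in KO-Drug vs KO were lost there. No test of a difference between the complexes was made.

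Genes listed for assembly and regulation were set against all tested genes. Of those, 17.7% were called lower in KO and 8.80% higher in KO-Drug than in KO. The lists also hold genes that are not assembly factors, among them Cyb5r3, Usmg5, 2010107E04Rik and Atpif1. In complex II assembly, 2 of 4 factors were called lower in KO than in Het, Sdhaf2 at -0.43 and Sdhaf3 at -0.70. On the complex III list 2 of 8 genes were, the AAA protein Bcs1l that inserts the Rieske protein at -0.88 and Uqcc3 at -0.46. On the ATP synthase list 4 of 8 genes were called lower, led by 1110001J03Rik at -1.37 and Atpaf2, a chaperone of the alpha subunit, at -0.50. Among the 4 was 2010107E04Rik, at -0.47. In KO-Drug vs KO the 4 complex II factors ran from 0.12 to 0.35 with no call at an adjusted p under 0.05, 1 of the 8 complex III genes (Cyb5r3, a cytochrome b5 reductase, 0.82) and 2 of the 8 ATP synthase genes (Tmem70 0.52, 1110001J03Rik 0.66) were called higher. On total-count scaling 1110001J03Rik was the only one of these genes still called lower in KO vs Het. Called higher were Ttc19, Hccs and Atpif1, the inhibitor of the ATP synthase, where 51.6% of all tested genes were.

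Genes of the routes that feed electrons to ubiquinone beside complex II were also measured. Of 8 such genes 5 were called lower in KO than in Het, against 17.7% of all tested genes, with a median of -0.57. Prodh, the proline dehydrogenase, averaged 175 ± 26.1 CPM in KO-Drug, 77.2 ± 10.6 CPM in KO and 173 ± 11.7 CPM in Het (SD, n = 4 each). The KO level was 2.24-fold below Het (log2 -1.16, SE 0.14, adjusted p = 4.3e-05) and KO-Drug stood 2.27-fold above KO (log2 1.18, SE 0.14, adjusted p = 0.00044). Etfa, a subunit of the flavoprotein that collects electrons from fatty acid oxidation, was 1.90-fold lower in KO (log2 -0.93, SE 0.13, adjusted p = 0.00021) and 1.85-fold higher in KO-Drug than in KO (log2 0.89, SE 0.13, adjusted p = 0.0015). Both genes were also called on total counts in both comparisons, where 2 others, Gpd2 and Chdh, were called higher in KO. Over all tested genes, 51.6% were called higher in KO vs Het on that scaling.

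Of 13 citric acid cycle genes 5 were called lower in KO than in Het, among them Suclg1 (-0.66) and Sucla2 (-0.69), the subunits of the enzyme that makes the succinate used by complex II, and 4 were called higher in KO-Drug than in KO. Over all tested genes, 17.7% were called lower in KO and 8.80% higher in KO-Drug than in KO. On total counts the 5 lower calls were lost and 5 other genes of the 13 were called higher in KO, against 51.6% of all tested genes. Of 10 genes of ubiquinone synthesis 2 were called lower in KO, Adck3 (-1.10) and Coq5 (-0.38), against 17.7% of all tested genes. Called higher were 2, Coq7 (0.63) and Pdss1 (0.87), against 23.0%, and the median of the 10 was 0.01. A further list held 8 genes for the passage and use of ADP, ATP and phosphate, not all of them carriers. Of these, Slc25a3, Vdac1 and Vdac2 were lower in KO (-0.55, -0.53 and -0.38). Slc25a4, the muscle-type ADP/ATP carrier, was higher, with 5.26 ± 0.661 CPM in KO-Drug, 17.5 ± 4.76 CPM in KO and 5.26 ± 1.16 CPM in Het. Ckmt1, a mitochondrial creatine kinase, was called higher in KO as well, at 0.708 ± 0.377 CPM in KO and with no count in Het. That made 3 lower and 2 higher of the 8, against 17.7% and 23.0% of all tested genes. On total counts 4 of these 8 genes were called higher and the 3 lower calls were lost, and ubiquinone synthesis had 5 higher and 1 lower. On that scaling 51.6% of all tested genes were called higher and 3.44% lower.

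Of 14 regulators of mitochondrial biogenesis, 4 were called lower in KO than in Het, against 17.7% of all tested genes: Tfb2m, a mitochondrial transcription factor, at -0.67, Gabpa at -0.54, Yy1 at -0.44 and Esrrg at -1.90. Nrf1 (-0.15, adjusted p = 0.42), Esrra (-0.30, adjusted p = 0.14) and the coactivator Ppargc1a (-0.31, adjusted p = 0.51) were not called. Tfb2m (0.53) and Gabpa (0.35) were called higher in KO-Drug than in KO, against 8.80% of all tested genes. The Gabpa gene overlaps the member Atp5j, and reads in the shared stretch cannot be told apart here. Of 9 genes that shape the inner membrane, 6 were lower in KO than in Het, led by the prohibitin Phb2 (-0.81) and the cristae protein Chchd3 (-0.87), and 6 were higher in KO-Drug than in KO. On total counts Esrrg was the only regulator still called lower in KO vs Het. Called higher there were 2 of the 14 regulators and 2 of the 9 membrane genes, against 51.6% of all tested genes. All 6 lower calls of the membrane genes were lost there, as were the higher calls of both lists in KO-Drug vs KO.

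Markers of several cell types differed between KO and Het. The 10 hepatocyte markers summed to 67270 to 86406 CPM in KO-Drug, 35290 to 64552 CPM in KO and 78890 to 130810 CPM in Het, and 9 of 10 were called lower in KO than in Het (on total counts 4 lower and 1 higher). The 10 macrophage markers summed to 526 to 1188 CPM in KO-Drug, 1118 to 2511 CPM in KO and 461 to 629 CPM in Het, and all 10 were called higher in KO than in Het on either scaling. Markers of T, NK and B cells were higher in KO than in Het in 5 of the 6 that passed the filter, those of neutrophils in 5 of 5, of stellate cells in 4 of 8 and of cholangiocytes in 3 of 7. Over all tested genes, 23.0% were called higher and 17.7% lower in KO, or 51.6% and 3.44% on total counts. All markers of these 6 cell types that the table holds had counts in each group except Ly6g, which was at 0 in KO-Drug and Het. Endothelial markers were called higher in KO than in Het in 3 of 7, with a median of 0.04, and 6 of the 7 overlapped between these groups. Of 6 erythroid markers 1 was called lower in KO than in Het, and 5 overlapped. In bulk liver, fewer cells of a type and less RNA per cell cannot be told apart, and the part of these markers in the members' changes was not tested.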

How the data were processed

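RNA of flash-frozen liver was extracted with an RNeasy mini kit and made into TruSeq Stranded Total RNA libraries, per the labels' protocols. The read counts per gene were deposited by the authors as raw counts, and the FPKM values beside them were scaled by the authors for transcript length and depth. The submitters' processing notes name FastQC 0.11.7, StringTie 2.1.3b and mm10; of the aligner, annotation and strand setting nothing is given in the sources used here. Columns of 3 value sets without a matching sample label were not used.

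Counts of all 12 libraries were fitted together with edgeR 4.0.16 (R 4.3.3; quasi-likelihood test, TMM scaling, filterByExpr with a minimum count of 10 and total of 15, two-sided), with Benjamini-Hochberg adjustment over the 13379 genes that passed the filter and a threshold of 0.05 on the adjusted p. All SEs, intervals and adjusted p-values in the text come from this fit unless another is named. CPM are on TMM-scaled sizes. Alternatives were total-count scaling, no filter, DESeq2 1.42.0, limma 3.58.1 on log2(FPKM + 1), fits of 2 groups, the replicate number as a block, both KO 5 and KO 6 left out, each library left out, and, added after seeing the data, Het 1 and KO 4 left out together. The fit was tested on simulated data. A member that was not called is not thereby shown to be unchanged. The labels do not tie libraries to litters or batches, so p-values measure the spread between these libraries. Positions come from RefSeq GRCm38.p6 and transcript lengths from GENCODE M21, for all 31 members.

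The members and gene lists were chosen with earlier results of these data known. Values in every library are printed, per complex, for the 3 members of smallest adjusted p in KO vs Het and the 2 in KO-Drug vs KO, for members that moved against their complex, for the subunit c genes, for the 2 of highest FPKM, and for the members of least and most change. Of each further gene list the 2 of smallest adjusted p in KO vs Het are named, with those called against the rest; other names were chosen after their values were seen.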

Additional observations from a re-analysis of the deposited data

Results flagged for a closer look

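Of 96 sets of 4 libraries (31 members and Atp7b in each of 3 groups), 10 had 1 library far from the others by Dixon's criterion at the 95% level, which chance meets in about 1 of 20 sets. In 8 of them the library was Het 1. The ATP synthase subunit Atp5e had 197 CPM in Het 1, against 119.5 to 127 CPM in the other Het libraries. The peripheral stalk gene Atp5j had 141 CPM in Het 1, and the others 81.9 to 90.8 CPM. The membrane subunits were also high there, with Atp5j2 at 232 CPM (others 164 to 165), Atp5k at 203 CPM (others 119 to 131) and Atp5l at 180.3 CPM (others 112 to 116). In complex II, Sdhd reached 370.3 CPM in Het 1 (others 240.3 to 256). In complex III, Uqcr10 reached 156 CPM (others 87.5 to 95.2) and Uqcrh 317 CPM (others 188 to 199.6). Het 1 is the library in which genes of short transcripts stood above their Het mean, by a median log2 of 0.33, and the part of transcript length in these values was not tested.

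The 2 other sets were in KO. Atp5b was at 1017 CPM in KO 6 and at 918 to 934 CPM in the other KO libraries, and Atp5s was at 3.87 CPM in KO 2 and at 4.90 to 4.99 CPM in the others.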

How the results depend on the processing

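In KO vs Het the count of 30 lower members was 6 with total-count scaling and 5 with limma on FPKM, and stayed within 1.5 times under the other alternatives; the 1 higher member, Atp5s, was not called (0) under the replicate block or without both KO 5 and KO 6. Leaving out 1 library gave 29 to 30 lower and 0 to 1 higher. In KO-Drug vs KO the 20 higher members were 1 with total counts, 1 with limma on FPKM, 26 with DESeq2 and 8 to 25 without 1 library. In KO-Drug vs Het, DESeq2 called 4 lower, and leaving out 1 library gave 2 to 4 lower and 0 to 1 higher. Deviations of same-numbered libraries correlated from -0.035 to 0.136, mostly above 0, and those of differently numbered libraries from -0.181 to 0.220. Such weak values do not decide whether the replicate numbers pair the samples. Under the replicate block 20 members were lower in KO vs Het, 3 higher in KO-Drug vs KO and 0 higher in KO-Drug vs Het. Signs turned for Atp5g2 in KO vs Het (0.069 on total counts, 0.12 on FPKM), and on FPKM for Sdhc (0.0049), Uqcrc2 (0.0042) and the KO-Drug vs Het median (0.0041). In KO-Drug vs KO they turned on total counts for Atp5b (-0.0014), Atp5g2 (-0.00028), Atp5s (-0.26), Atp5sl (-0.12) and Cycs (-0.0061), and on FPKM for Atp5a1 (-0.0050), Atp5b (-0.022), Atp5g2 (-0.012), Atp5s (-0.21), Atp5sl (-0.11) and Uqcrc1 (-0.0045); without 1 library Atp5s ran from -0.037 to 0.16. Total counts and FPKM move all genes by the scaling; for the other settings the cause was not tested.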
